A study of Homo sapiens with 5 samples.

Results

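The genes described here are the fibroblast growth factor (FGF), MET and AXL receptor systems as measured in 2 human lung cancer cell lines in which the scaffold protein NEDD9 was lowered or raised. The set lists 10 genes: the secreted carrier FGFBP1, the ligands FGF2, HGF and GAS6, and the receptors FGFR1, FGFR2, FGFR3, FGFR4, MET and AXL. A gene was taken when the array held a feature (a transcript cluster, which averages probes over the exons of a gene) annotated with that symbol alone, and 9 of the 10 genes had 1 such feature, of 14232 genes measured in this way. FGF2 had none. Both of its features are annotated to FGF2 and to NUDT6, the gene on its opposite strand, and they were not used.

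RNA of 5 samples was hybridised to 1 Affymetrix exon array each. A549, an established lung adenocarcinoma line that per the submitters has lost LKB1 function by mutation and has raised NEDD9, was profiled with shNEDD9 #1 (hairpin 1) and with shNEDD9 #2 (hairpin 2), each a short hairpin against NEDD9, and as a control. CRL-5907, a lung cancer line that per the submitters keeps wild-type LKB1 and has little NEDD9, was profiled with NEDD9 overexpression and as a control. The labels say nothing of an empty or non-targeting construct in the controls, of clones, or of separate cultures, so the spread between the hairpin arrays, which are different constructs, may be partly technical. Every condition other than knockdown rests on a single array.

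FGF ligands bind receptor tyrosine kinases of the FGFR family together with heparan sulfate, and the receptors signal through the adaptor FRS2 to the RAS and ERK cascade. FGFBP1 releases FGF2 and related ligands that are held on heparan sulfate in the matrix. HGF, which is made mainly by mesenchymal cells, activates MET, and the vitamin K-dependent ligand GAS6 activates AXL, a receptor of the TAM family (TYRO3, AXL, MERTK). In lung cancer MET and AXL are known as receptors whose activation can bypass inhibition of the EGF receptor.

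FGFBP1 with overexpression and AXL between the lines carried the widest differences among genes of the set that passed the level filter described below, and their promoters show which sequences lie at these genes (RefSeq, GRCh38.p14, from 250 bases before to 50 bases after the start). The FGFBP1 window is chr4:15938691-15938990 on the minus strand and the AXL window is chr19:41218973-41219272 on the plus strand, each printed 5′ to 3′ along the gene with motif matches in capitals. Of the 10 listed symbols 9 matched the promoter table, all but FGFR1, and AXL has 2 windows in it, of which the first is shown.
FGFBP1: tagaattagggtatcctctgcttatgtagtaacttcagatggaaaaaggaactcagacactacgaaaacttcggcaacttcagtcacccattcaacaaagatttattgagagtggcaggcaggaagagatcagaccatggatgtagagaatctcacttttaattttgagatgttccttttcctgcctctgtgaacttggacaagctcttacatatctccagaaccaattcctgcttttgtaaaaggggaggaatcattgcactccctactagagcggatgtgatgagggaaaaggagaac
AXL: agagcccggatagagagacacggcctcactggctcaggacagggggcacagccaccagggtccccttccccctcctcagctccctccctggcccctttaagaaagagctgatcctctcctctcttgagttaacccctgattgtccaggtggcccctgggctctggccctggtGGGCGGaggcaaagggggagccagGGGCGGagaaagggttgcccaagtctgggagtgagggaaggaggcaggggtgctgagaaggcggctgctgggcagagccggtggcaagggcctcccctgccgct
Both strands were searched for TGANTCA (the AP-1 motif), TGACG (the core of the cyclic AMP response element), CACGTG (an E-box) and GGGCGG (the GC box bound by Sp1). The FGFBP1 window held no match to any of these and had a GC content of 42%. The AXL window held 2 GC boxes, which begin at positions -78 and -54 relative to the start site, and had a GC content of 66%. The second AXL window, which is not shown, held no GC box, had 1 TGACG match at position -195, and had a GC content of 53.7%. GC boxes occur in 45.0% of the 35116 promoter windows, TGACG in 24.6%, the AP-1 motif in 7.71% and the E-box in 7.26%. These matches describe the letters of the windows and say nothing about binding.

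Values are log2 levels after robust multi-array averaging (RMA). The array medians over features with 1 symbol ran from 5.69 to 5.85, and a value below its array's median is not known to exceed background, which compresses a difference from such a value. NEDD9 itself was at 8.35 with hairpin 1 and 8.52 with hairpin 2, against 8.94 on the A549 control, and at 9.49 with overexpression, against 4.66 on the CRL-5907 control. The knockdown was therefore partial and the overexpression large. All 5 epithelial markers (KRT8, KRT18, KRT19, EPCAM, CDH1) lay above the median on all 5 arrays, and all 4 endothelial markers lay below it on all 5.

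FGFBP1 was the gene of the set that stood furthest from control after a change in NEDD9. With NEDD9 overexpression in CRL-5907 its log2 level was 7.04, against 5.21 on the control, a difference of 1.83 or 3.56-fold. This was the third highest of 7406 genes above the level filter, a filter that keeps a gene when its brightest array in a comparison exceeds that array's median. The control value lay below the median of its array. FGFBP1 therefore passed the filter only through the overexpression array, and its rank is no separate support for the difference. The difference has no replicate. As a yardstick from the other line, the 2 hairpin arrays differed from each other with an SD of 0.16. This SD covers the 500 genes whose mean A549 level lay nearest to the mean of FGFBP1 on the 2 CRL-5907 arrays. Near the lower level of FGFBP1 in A549 the SD was 0.26. Neither SD measures the error of the overexpression difference in CRL-5907. In A549 the level of FGFBP1 was 3.63 with hairpin 1 and 3.72 with hairpin 2, against 3.70 on the control. All 3 A549 values were far below the array medians, and the differences of -0.07 and 0.03 have opposite signs. The A549 control minus the CRL-5907 control gave a log2 difference of -1.51, but neither value exceeded its array's median. That difference and the overexpression difference subtract the same CRL-5907 control array.

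**Figure D1:**
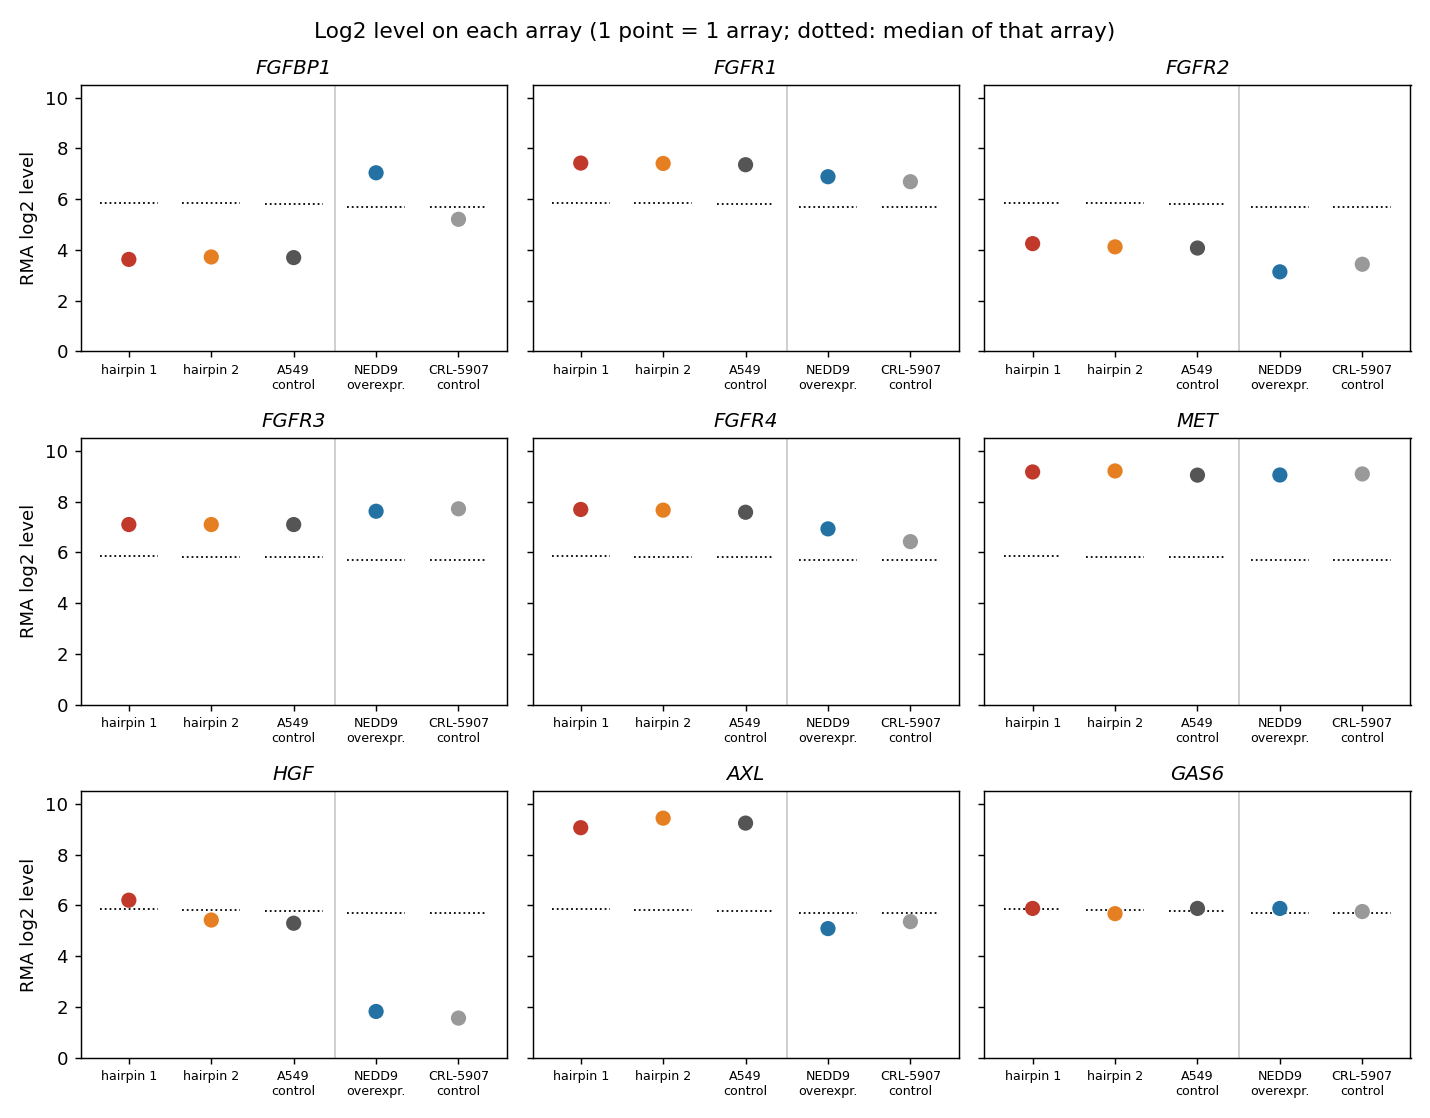
RMA log2 level of the 9 measured genes (1 panel each) on the 5 arrays, with 1 point per array and a dotted line at the median of each array over features with 1 symbol. FGFBP1 exceeds the median only with NEDD9 overexpression (7.04), AXL lies above it on the 3 A549 arrays (9.06 to 9.44) and below it on both CRL-5907 arrays, and HGF exceeds it only with hairpin 1 (6.21).

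Among the FGF receptors, FGFR4 was the furthest from control with NEDD9 overexpression. FGFR4, a receptor known for its pairing with the coreceptor KLB and the ligand FGF19, was at 6.92 with overexpression, against 6.42 on the control. The difference of 0.50, or 1.42-fold, missed the 1.5-fold threshold and exceeded in size those of 93.2% of the 7406 genes. In A549 FGFR4 was at 7.69 with hairpin 1 and 7.66 with hairpin 2, against 7.58 on the control. Between the lines it stood at 7.58 in control A549 cells and at 6.42 in control CRL-5907 cells, 2.23-fold higher in A549, which passed the 2-fold threshold used for this comparison.

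FGFR1, a receptor amplified in a share of squamous lung cancers, was at 7.42 with hairpin 1 and 7.41 with hairpin 2, against 7.36 on the A549 control. It was at 6.88 with overexpression, against 6.69 on the CRL-5907 control, a difference of 0.20. The A549 control was higher than the CRL-5907 control by 0.67, or 1.59-fold. FGFR1 and FGFR4 thus lay above the level on the CRL-5907 control in all of the other 4 arrays. These comparisons share that 1 control array, and the hairpin and A549 control arrays are of the other line. Of all genes above the filter, 4254 of 7716 were higher on the A549 control than on the CRL-5907 control. With overexpression 4350 of 7406 were higher.

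FGFR3 ran the other way between the lines. Its level was 7.09 in control A549 cells and 7.71 in control CRL-5907 cells, a difference of -0.62 or 1.54-fold lower in A549. With overexpression it was at 7.62, against 7.71 on the control. FGFR3 had exactly the same value, 7.09, on all 3 A549 arrays. RMA can assign equal values to several arrays, and 6.25% to 8.97% of all features were equal in any pair of arrays, so the difference of 0.00 with both hairpins does not show that FGFR3 was unchanged. FGFR2 was below the median on every array. It was at 4.25 with hairpin 1 and 4.12 with hairpin 2, against 4.07 on the A549 control, and at 3.14 with overexpression, against 3.44 on the CRL-5907 control.

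MET, the receptor of HGF, differed little between any of the arrays. Its level was 9.17 with hairpin 1 and 9.21 with hairpin 2, against 9.04 on the A549 control. The mean difference of 0.14 ± 0.03 (SD, n = 2) exceeded the spread between the hairpins, but limma did not call it (adjusted p = 0.315 with Benjamini-Hochberg adjustment over 7473 genes). That fit has 1 control array and did not call NEDD9 itself (adjusted p = 0.312), so the lack of a call decides nothing about MET. All genes above the filter had median differences of 0.10 with hairpin 1 and 0.04 with hairpin 2, in the same direction. MET was at 9.05 with overexpression and 9.09 on the CRL-5907 control. The A549 control minus the CRL-5907 control gave -0.05, a difference that 89.1% of the 7716 genes above the filter in that comparison exceeded in size.

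HGF stood apart between the lines and between the hairpins. Its level was 6.21 with hairpin 1 and 5.43 with hairpin 2, against 5.30 on the A549 control. The difference of 0.91 with hairpin 1 was the 32nd highest of 7473 genes, while that with hairpin 2 was 0.13. The mean of 0.52 ± 0.55 (SD, n = 2) was smaller than its SD, and limma did not call it (adjusted p = 0.656). Only the hairpin 1 value exceeded its array's median. HGF therefore passed the filter only through that array, and its rank is no separate support for the difference. In CRL-5907 HGF was at 1.83 with overexpression, against 1.56 on the control, both near the lower end of the array's range. The A549 control was 3.74 above the CRL-5907 control on the log2 scale, with both values below their medians.

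HGF is a product of fibroblasts in tissue, and the markers of other cell types were read beside it. The 7 fibroblast markers had a mean log2 level of 4.07 with hairpin 1 and 4.18 with hairpin 2, against 4.15 on the A549 control. Of these, 6 lay below the median on all 5 arrays, and COL1A1 lay close to it, at 5.78 with hairpin 1 and 5.72 with hairpin 2, against 5.79 on the A549 control. DCN was at 2.07 with hairpin 1 and 2.18 with hairpin 2, against 2.18 on the A549 control. The 4 measured leukocyte markers had a mean of 4.01 with hairpin 1 and 3.85 with hairpin 2, against 3.61 on the A549 control. PTPRC, which defines leukocytes, was at 1.72 on all 5 arrays and CD3E at 2.38 to 2.70. LYZ, which encodes lysozyme and is also made by airway glands, was at 5.55 with hairpin 1 and 5.34 with hairpin 2, against 3.55 on the A549 control. CD14 was at 6.08 with hairpin 1 and 5.63 with hairpin 2, against 6.47 on the A549 control. The part of these markers in the HGF values was not tested.

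AXL separated the lines more than any other gene of the set that lay above the filter. Its level was 9.25 in control A549 cells and 5.36 in control CRL-5907 cells, a difference of 3.88 or 14.7-fold, the 39th highest of 7716 genes. The 3 A549 arrays lay between 9.06 and 9.44 and the CRL-5907 arrays at 5.09 and 5.36. The arrays of a line are different conditions and not replicates of that line. Both CRL-5907 values were below their medians. Between the controls AXL therefore passed the filter only through the A549 control, and its rank is no separate support for the difference. Within A549 the hairpins differed in sign: AXL was at 9.06 with hairpin 1 and 9.44 with hairpin 2, against 9.25 on the control. The mean difference of 0.01 ± 0.27 (SD, n = 2) was far below the spread between the hairpins. In CRL-5907 AXL was at 5.09 with overexpression, against 5.36 on the control.

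GAS6, the ligand of AXL, differed little between the lines. It was at 5.88 in control A549 cells and 5.76 in control CRL-5907 cells. With hairpin 1 it was at 5.88 and with hairpin 2 at 5.68, against 5.88 on the A549 control. With overexpression it was at 5.88, against 5.76 on the CRL-5907 control. Its values on the hairpin 1, A549 control and overexpression arrays were exactly equal, and all 5 lay close to the array medians.

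**Figure D2:**
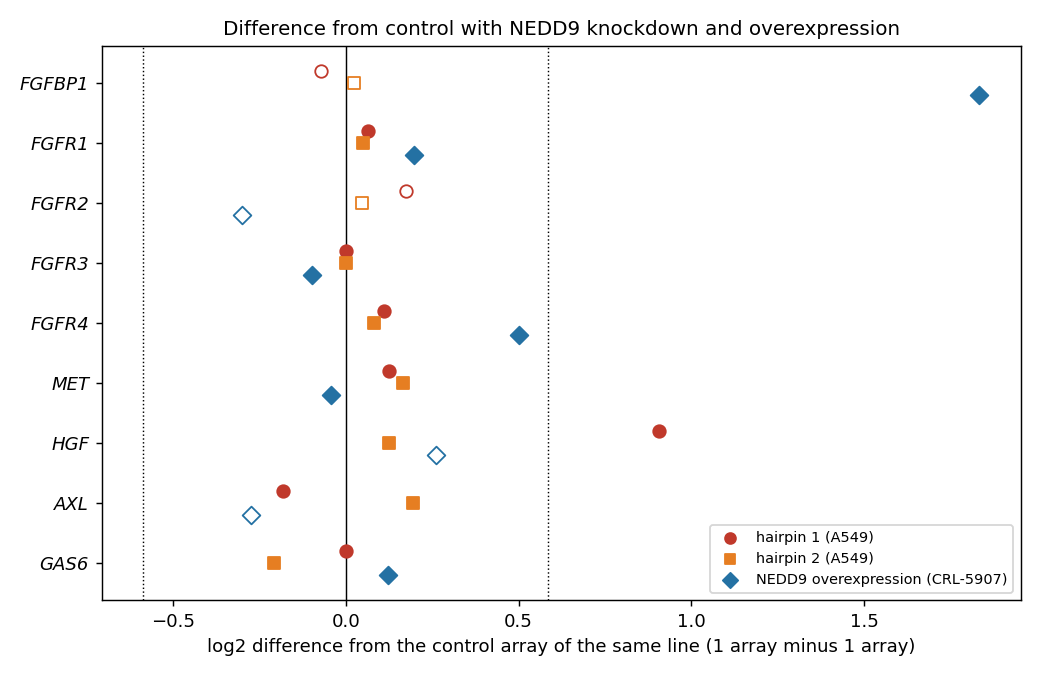
Log2 difference of the hairpin and overexpression arrays from control within each line for the 9 genes. Dotted lines mark 1.5-fold, and open symbols mark genes below the level filter in that line. FGFBP1 with overexpression (1.83) and HGF with hairpin 1 (0.91) are the points beyond 1.5-fold.

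Counted by the same rules as all genes, few of the 9 genes passed, as the plot of differences by gene shows. With knockdown 7 of the 9 were above the level filter, and with both hairpins 0 of them passed 1.5-fold upward and 0 downward. Of the 7473 genes 0.709% and 0.134% did (53 and 10 genes, or 40 and 18 after a further quantile normalization). NEDD9, the target of the hairpins, did not pass with both either (-0.59 with hairpin 1 and -0.41 with hairpin 2). These counts of 0, and those for the lists below, therefore do not show a lack of response. The 9 genes had a median mean difference of 0.06, as had the 7 above the filter, against 0.07 for all genes above the filter. Of the 9 genes 5 were higher with both hairpins, among them FGFR2 from below the filter. Of all genes above the filter 4018 of 7473 were higher with both. FGFR1 (-0.04) and FGFR4 (-0.01) turned negative on average after a further quantile normalization. limma, on the hairpin arrays and the single control with 1 residual degree of freedom, made 0 calls (0% of 7473 genes) at a Benjamini-Hochberg threshold of 0.05. The error of that single control array enters every difference in this fit, so the lack of calls decides nothing. Among the 7 genes of the set in that fit MET had the lowest adjusted value.

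With overexpression 6 of the 9 genes were above the filter. FGFBP1 was at least 1.5-fold higher and 0 were at least 1.5-fold lower, where 3.5% of the 7406 genes were higher and 0.851% lower (259 and 63 genes, or 188 and 111 after a further quantile normalization). The median was 0.12 over the 9 genes and 0.16 over the 6 above the filter, against 0.05 for all genes above the filter. Between the controls 6 of the 9 were above the filter, and FGFR4 and AXL were at least 2-fold higher in A549, where 9.88% of the 7716 genes were higher and 5% lower by that much. HGF and FGFBP1 also differed by more than 2-fold between the controls but lay below the filter. With 1 array in each condition neither comparison has a test, and 1 of 6 and 2 of 6 genes are too few to set against the shares of all genes.

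**Figure D3:**
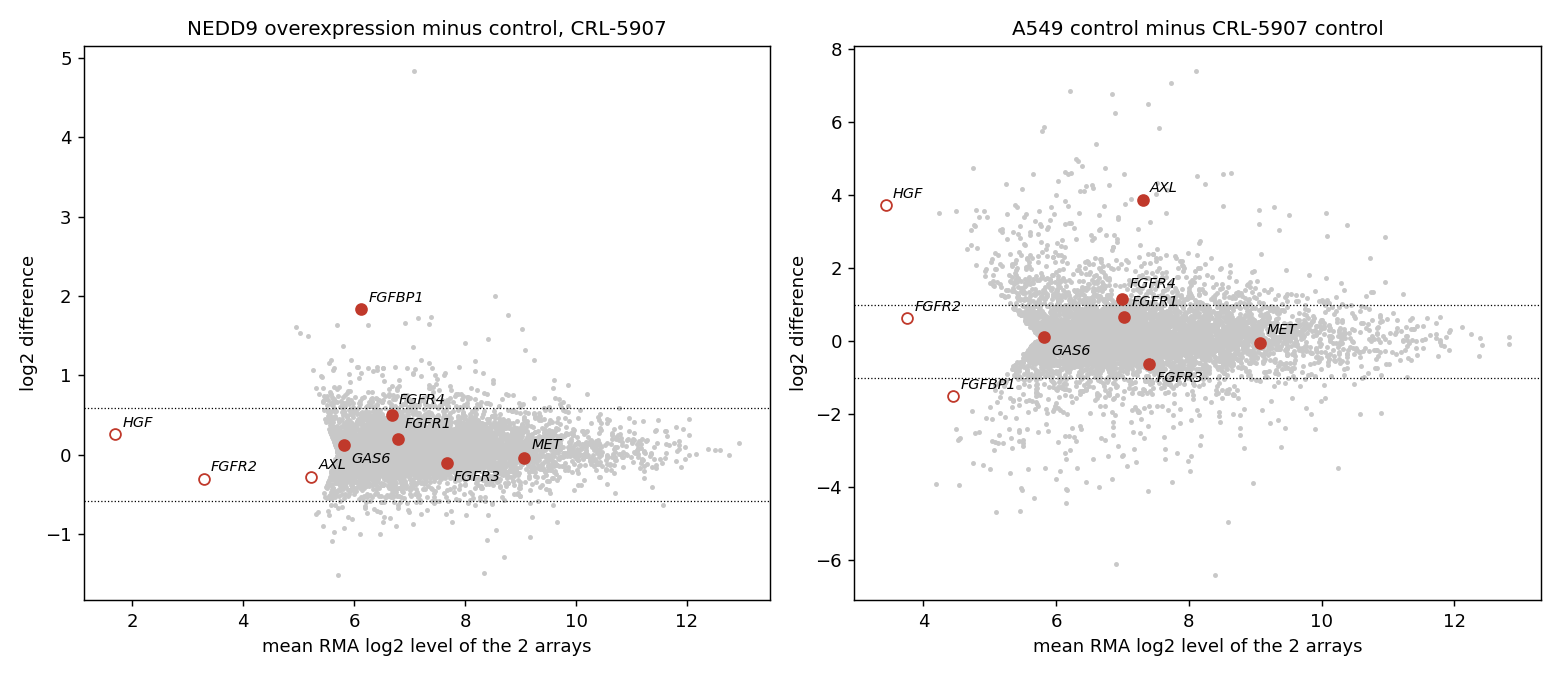
Log2 difference against mean log2 level for the genes above the level filter (grey) with the 9 genes in red, open where below the filter. The left panel shows NEDD9 overexpression minus control in CRL-5907 with lines at 1.5-fold, where FGFBP1 (1.83) is near the top, and the right panel A549 control minus CRL-5907 control with lines at 2-fold, where AXL (3.88) is far above the others that passed the filter.

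The wider pathways were read from lists of related genes. The lists are short and were chosen with earlier results of these data known. Their counts, here and below, are therefore no test against the shares of all genes. Of 21 other genes of the FGF family 17 were measured, and only 2 in A549 and 3 in CRL-5907 lay above the filter. FGF18, a ligand of lung development, was at 5.89 with hairpin 1 and 5.81 with hairpin 2, against 6.24 on the A549 control (differences -0.35 and -0.43). The hairpin values lay close to the array medians, that with hairpin 2 below its own. With overexpression 0 of the 3 family genes passed 1.5-fold in either direction, and FGF18 was at -0.07.

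Of 23 measured carriers, coreceptors and heparan sulfate enzymes, 12 were above the filter in A549 and 0 passed 1.5-fold with both hairpins. SULF2, a sulfatase that trims heparan sulfate, was at 5.98 with hairpin 1 and 5.68 with hairpin 2, against 6.36 on the A549 control (-0.38 and -0.68). The hairpin 2 value lay below that array's median. With overexpression 0 of the 10 above the filter passed 1.5-fold. Between the controls 3 of 12 were at least 2-fold higher in A549 and 2 lower, where 9.88% of all genes above the filter were higher and 5% lower. SDC1, a syndecan, was 3.49-fold higher in A549. GPC6, a glypican, was at 8.02 in control A549 cells and 4.33 in control CRL-5907 cells, and SULF2 at 6.36 in control A549 cells and 5.02 in control CRL-5907 cells, where both CRL-5907 values lay below the array's median and are not known to exceed background. In the other direction, EXT1, which elongates heparan sulfate chains, was 2.35-fold lower and SDC4 2.08-fold lower.

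Of 14 measured adaptors and ERK cascade genes 0 passed 1.5-fold with both hairpins and 0 with overexpression. CBLB, a ubiquitin ligase of activated receptors, differed from the A549 control by 0.34 with hairpin 1 and 0.41 with hairpin 2. With overexpression it was at 7.02, against 7.38 on the CRL-5907 control (-0.36), the opposite direction and likewise below 1.5-fold. Between the controls PIK3R1, a regulatory subunit of PI3 kinase, was at 6.78 in control A549 cells and 4.50 in control CRL-5907 cells. PLCG1, a phospholipase recruited to FGF receptors, was at 6.91 in control A549 cells and 5.39 in control CRL-5907 cells, and for both genes the CRL-5907 value lay below the array's median. MAPK3, which encodes ERK1, was 2.17-fold lower in A549.

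Of the ERK feedback and target genes 18 of 19 were measured. With overexpression 2 of 17 above the filter were at least 1.5-fold higher and 0 lower, against 3.5% and 0.851% of all genes. SPRY2, a feedback inhibitor of receptor tyrosine kinase signalling, was at 7.24 with overexpression, against 6.37 on the control (0.87). FOSL1, an AP-1 subunit induced by ERK, was at 7.35 with overexpression, against 6.64 on the control (0.71). The list's median was 0.07 over its measured genes and also over those above the filter, against 0.05 for all genes above the filter. With knockdown 0 of 16 passed 1.5-fold, and IER3, an immediate early gene, was at 9.99 with hairpin 1 and 10.02 with hairpin 2, against 10.43 on the A549 control (-0.44 and -0.41). PHLDA1 was 3.07-fold higher on the A549 control than on the CRL-5907 control.

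Of 11 genes above the filter that process HGF or work beside MET, 3 were at least 2-fold higher in A549 and 4 lower, where 9.88% of all genes above the filter were higher and 5% lower. DCBLD2, a transmembrane protein that has been tied to receptor kinase signalling, was at 10.81 in control A549 cells and 6.23 in control CRL-5907 cells, 24.0-fold higher in A549. ITGA6, an integrin subunit, was 2.63-fold higher and ERRFI1, a feedback inhibitor of the EGF receptor, 2.41-fold higher. SPINT1, an inhibitor of the proteases that activate HGF, was at 6.35 in control A549 cells and 9.63 in control CRL-5907 cells, 9.70-fold lower in A549. ST14, which encodes matriptase, an activator of HGF, was also lower, by 2.42-fold from an A549 value below the array's median, as were ITGB4, by 2.92-fold, and LRIG1, which promotes receptor degradation, by 2.30-fold. With knockdown and with overexpression 0 genes of this list passed 1.5-fold.

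In the TAM list 6 of 10 genes were measured. PROS1, which encodes protein S, a vitamin K-dependent ligand of TYRO3 and MERTK, was at 5.97 with NEDD9 overexpression, against 5.26 on the control, a difference of 0.71. It was at 8.98 with hairpin 1 and 8.80 with hairpin 2, against 8.61 on the A549 control (0.37 and 0.19), and was 10.2-fold higher on the A549 control than on the CRL-5907 control. PROS1 was the 1 gene of 4 above the filter that passed 1.5-fold with overexpression, where 3.5% of all genes above the filter were higher and 0.851% lower by that much. Its CRL-5907 control value lay below the array's median. LGALS3, galectin-3, a reported ligand of MERTK, was 2.95-fold lower on the A549 control, where it lay below the array's median, and GGCX, the carboxylase that matures vitamin K-dependent proteins, 2.76-fold lower.

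**Figure D4:**
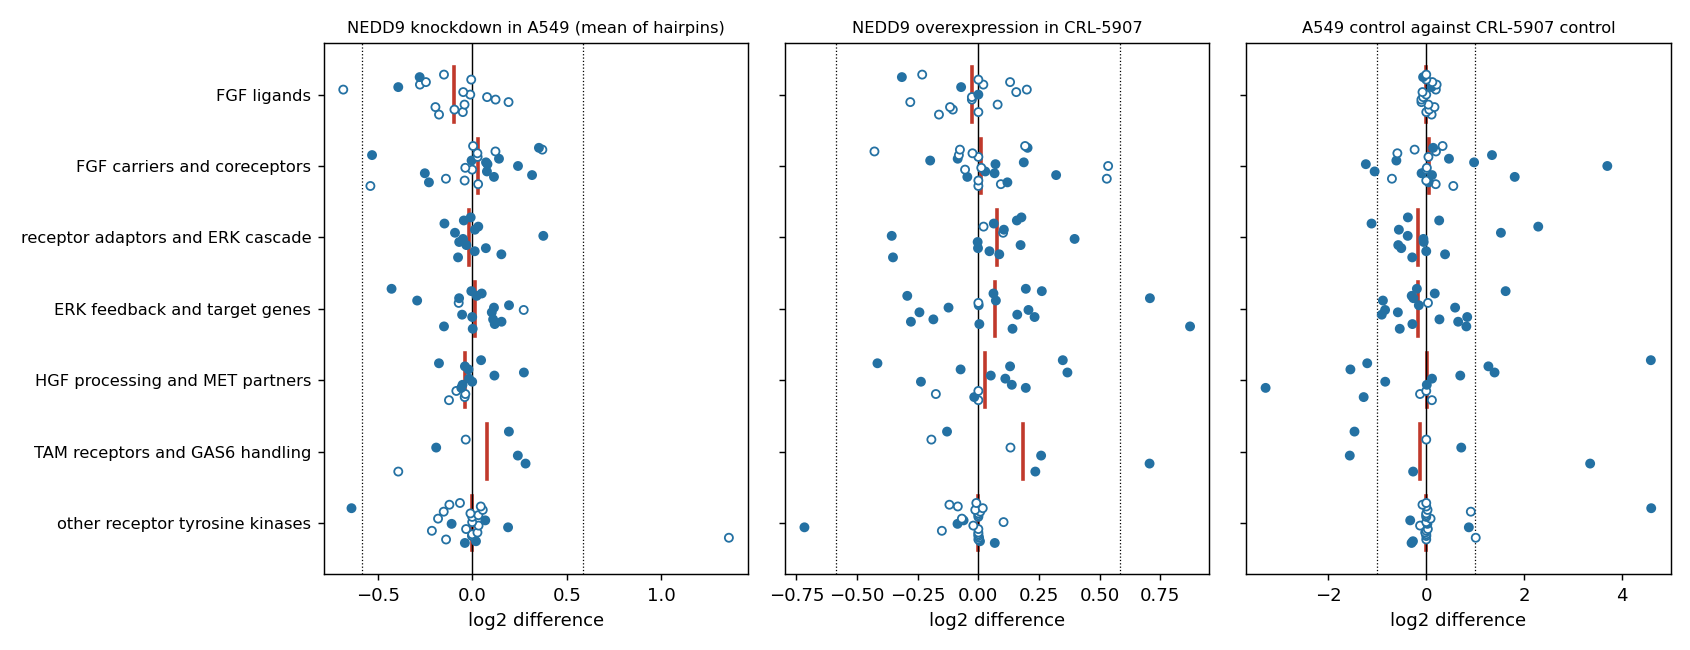
Log2 differences of the measured genes of 7 lists (rows) in the 3 comparisons, with 1 point per gene, open where below the level filter, and a red bar at each list's median over measured genes. Dotted lines mark 1.5-fold (2-fold in the right panel), and knockdown points are means of the hairpins, so that a point past the line, such as NTRK3 at -0.64, need not pass with both hairpins.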

How the data were processed

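Levels are the log2 values deposited for 22011 features on 5 arrays. The authors made them with RMA (background correction, quantile normalization and probe summary) with the software Affymetrix Power Tools; both names come per the submitters' processing notes, with no version. The genome build is not given in the sources used here. The log base was taken from the range of the values (0.58 to 13.09). Arrays were assigned by title (1 description names NEDD10 where its title says NEDD9). Platform annotation gave 14432 features with 1 symbol, 2408 with several and 5171 unnamed here. For genes with several features the brightest by mean was used. The number of arrays limits the precision. The members and lists were chosen with earlier results of these data known.

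Differences were computed from the control of the same line. limma 3.58.1 under R 4.3.3 compared the hairpins with their control (lmFit and trended eBayes), and steps were tested on simulated data. Genes named from the 7 lists were up to 4 each way past the fold threshold (for knockdown 1.25-fold with both hairpins) and above the filter. The 3 genes with the nearest centred 5-array profile were named for FGFBP1, MET and AXL. Alternatives were array centring, a further quantile normalization, removal of the trend with level (lowess), the mean of features, other filters and thresholds, and each hairpin alone.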

Additional observations from a re-analysis of the deposited data

How the results depend on the processing

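No paired analysis was possible because each line has a single control array. Knockdown counts rest on 1 control array that both hairpins share. The count of genes of the set at least 1.5-fold higher with knockdown ran from 0 without hairpin 1 to 1 without hairpin 2 (HGF), against 0 with both, and the lower count was 0 in each. The overexpression count of 1 became 0 with the filter at the 75th percentile, where FGFBP1 is left out. The count of genes lower in A549 than in CRL-5907 was 0, and it became 1 without a filter (FGFBP1) and 1 at 1.5-fold (FGFR3). Without a filter HGF joined FGFR4 and AXL on the higher side (3 genes), as did FGFR1 at 1.5-fold. limma called 0 genes under each setting it was run with, and its lowest adjusted p with Benjamini-Hochberg adjustment ran from 0.0702 to 0.327.

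Over all genes, the 10 lower genes with knockdown became 18 after quantile normalization, 16 with the trend removed, 43 without a filter, 3 with the stricter filter and 0 at 2-fold, and 36 to 40 with a single hairpin. The 53 higher genes became 113, 20 and 5 with no filter, the stricter filter and 2-fold, and 96 to 190 with a single hairpin. The 259 higher genes with overexpression became 413, 151 and 52 under those settings, and the 63 lower genes 192, 34 and 6, and 111 after quantile normalization. Between the lines 762 higher genes became 498 with the stricter filter and 1499 at 1.5-fold, and 386 lower genes became 854 at 1.5-fold.

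For the single genes of the set, all 63 values with overexpression kept their sign and moved by at most 0.09. All 63 between the lines kept theirs too, and MET moved most, to -0.20 after quantile normalization. Of 81 knockdown values 13 changed sign or left 0. After quantile normalization the mean knockdown difference was -0.04 for FGFR1, -0.01 for FGFR4 and 0.06 for MET. The FGFR1 and FGFR4 differences with knockdown therefore have no settled direction. The 29 differences of genes named from the lists kept their sign in all 213 recomputed values and moved by at most 0.19.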

Other observations

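Outside these pathways, 24 of 26 other receptor tyrosine kinases were measured and 6 in A549 and 5 in CRL-5907 lay above the filter. NTRK3, the neurotrophin-3 receptor, was at 7.69 with hairpin 1 and 7.98 with hairpin 2, against 8.47 on the A549 control (-0.78 and -0.49). Its A549 control level was 24.1-fold above the CRL-5907 control, which was at 3.88, below the array's median. ROR1, a receptor of WNT5A, differed by -0.72 with NEDD9 overexpression from its CRL-5907 control level of 5.71. It was at 6.71 with hairpin 1 and 6.84 with hairpin 2, against 6.58 on the A549 control. KIT, named after its values were seen, was below the filter at 5.15 with hairpin 1 and 4.74 with hairpin 2, against 3.58 on the A549 control (1.56 and 1.16), and at 2.58 with overexpression, against 2.57 on the CRL-5907 control.

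The genes whose centred levels over the 5 arrays lay nearest to a gene of the set were found among 8035 genes above the filter in either line. For FGFBP1 they were F3, tissue factor (Euclidean distance 0.38), NOG, a secreted BMP antagonist (0.60), and REG1A (0.62). F3 was at 8.02 with overexpression, against 6.29 on the CRL-5907 control, and at 4.65 with hairpin 1 and 5.06 with hairpin 2, against 5.10 on the A549 control. For AXL they were GSDME, a gasdermin (0.21), TM4SF4 (0.26) and WIPF1 (0.33), with A549 control values 4.16, 3.59 and 4.26 above the CRL-5907 control. For MET, which hardly varied, they were SLC1A5, ANKRD28 and B4GALT2, at distances of 0.023 to 0.037. These distances rest on 5 arrays and describe them only.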
